A study of Danio rerio with 6 samples.

Results

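Eicosanoids are short-lived lipid signals made from polyunsaturated fatty acids that phospholipases cut from membranes. Lipoxygenases oxygenate the released arachidonic acid towards hydroxy fatty acids and leukotrienes, whereas cyclooxygenases convert it into prostaglandin H2, from which terminal synthases make prostaglandin E2, prostaglandin D2 or prostacyclin. Prostaglandin E2 is known in zebrafish as a signal that acts on cell movement during gastrulation, through receptors of the EP4 type. The 8 genes described here were chosen by name, with earlier results of these data known, and encode enzymes of both branches. The lipoxygenase branch holds alox12, alox5a and lta4h. The cyclooxygenase branch holds ptgs1, ptgs2a, ptgs2b, ptges and ptgesl. Each name matched 1 of the 31953 genes in the files, and 7 of the 8 passed the minimum level for testing (10 or more normalised reads in 3 or more libraries), ptges being the exception.

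RNA was sequenced from Tg(krt18:krt18-GFP) zebrafish embryos at 6 hpf (hours post-fertilisation), the start of gastrulation, when the enveloping layer (EVL) forms the outer epithelial sheet of the embryo. Both groups came from this transgenic line, in which a GFP-tagged keratin 18 is driven by the krt18 promoter, and no other allele or agent was named. The sorted GFP-positive (EVL) cells gave 3 libraries and were set against sorted GFP-negative (non-EVL) cells, also with 3 libraries. The GFP-negative sort pools sorted cells without GFP, whatever their type, and the cells were prepared from about 1500 pooled embryos, so no library stands for 1 animal. Whether replicates are separate sorts is not stated in the labels, so every p-value rests on a spread between libraries that could be technical alone.

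The libraries held between 32187658 and 46144557 reads assigned to genes, and values are normalised reads, that is reads divided by a size factor of the library. The most abundant gene, listed as AC024175.4, took 34.5%, 42.7% and 40.2% of these reads in GFP-positive replicates 1, 2 and 3. In GFP-negative replicates 1, 2 and 3 it took 30.1%, 35.0% and 34.3%. All 16 EVL markers examined, which include 8 keratins, were higher in GFP-positive cells (limma, Benjamini-Hochberg adjusted p up to 0.00215 among them). The gene krt18 is among these keratins and in every sum of the markers. Cells were sorted on a tagged krt18, so its rise is no independent check, and the part of transgene reads in it was not tested. The summed level of the 16 markers ran from 759590 to 2453400 in GFP-positive libraries, with the highest value in replicate 1, and from 45598 to 63985 in GFP-negative libraries. For the 8 keratins, the mean in GFP-negative libraries amounted to 2.38% to 3.49% of the mean in GFP-positive libraries, with a median of 3.25%. Of 15 deep cell markers, 5 were lower in GFP-positive cells and 2, the endoderm and forerunner cell genes sox32 and sox17, were higher. The other 8 were not called. The summed level of the 15 ran from 57990 to 95187 in GFP-positive libraries and from 70923 to 101970 in GFP-negative libraries, with overlap. The part of deep cell transcripts among GFP-positive reads was not tested. Of the germ cell markers 3 of 6 tested were lower, and of the yolk syncytial layer markers 0 of 4 were called. Over all 15971 genes tested, 8.8% were called higher and 0.676% lower in GFP-positive cells at an adjusted p under 0.05, and the median log2 fold change was -0.06. These were 1405 genes with a rise and 108 with a fall, a split that became 1253 to 929 when edgeR scaled by library size only and 1327 to 572 under upper quartile scaling.

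Of the 8 genes, 3 rose in GFP-positive cells, namely the lipoxygenase gene alox12 and both copies of cyclooxygenase 2, ptgs2a and ptgs2b, by between 20.7-fold and 28.6-fold on the log2(value + 1) scale used for all fold changes here. None fell, and none of the other 4 tested had an unadjusted p under 0.05 in limma or a call in edgeR or DESeq2. Under upper quartile scaling or edgeR with library size alone 1 of them, ptgesl, was lower at an unadjusted p under 0.05, with log2 fold changes of -0.72 and -0.77, where the median of all genes was -0.33 and -0.37, and it was not called. The genes alox5a, ptgs1, lta4h and ptgesl were tested and not called, and ptges was too low to test. The 3 called genes stand against 8.8% of all tested genes called higher. Since the 8 genes were chosen with earlier results of these data known, that comparison is a description and not a test. The median log2 fold change over the 7 tested genes was 1.80, with a range of -0.44 to 4.84.

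**Figure D1:**
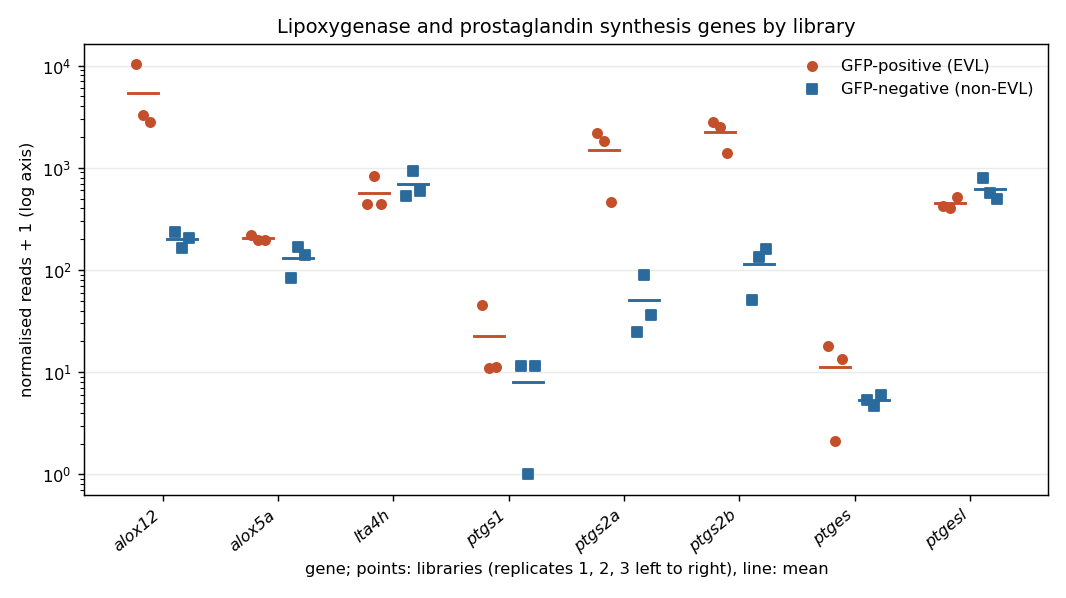
Normalised reads plus 1 (log axis) of the 8 genes in each library. Circles are the 3 GFP-positive (EVL) libraries, squares the 3 GFP-negative (non-EVL) libraries, and lines the group means. Groups are far apart for alox12, ptgs2a and ptgs2b, narrowly apart for alox5a, and overlap for lta4h, ptgs1, ptges and ptgesl.

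The gene alox12 (ENSDARG00000069463) encodes an arachidonate 12-lipoxygenase. It had 10246, 3297 and 2781 normalised reads in GFP-positive replicates 1, 2 and 3, against 236, 164 and 204 in GFP-negative replicates 1, 2 and 3. Every GFP-positive library was above every GFP-negative one, and GFP-positive replicate 1 held over 3 times the level of each of the other two. The means were 5441 ± 4169 in the GFP-positive libraries and 202 ± 36.0 in the GFP-negative libraries (SD, n = 3 each), a log2 fold change of 4.50 (SE 0.46, 95% interval 3.45 to 5.55; limma, adjusted p = 0.000779). Without GFP-positive replicate 1 the log2 fold change was 3.92, a fold 1.5 times smaller, and the call held. On the log2 fold change, 98.0% of tested genes lay below alox12.

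Arachidonate 5-lipoxygenase, the first enzyme of leukotriene synthesis and in mammals chiefly an enzyme of white blood cells, is represented by alox5a (ENSDARG00000057273). Its levels were 217, 197 and 197 normalised reads in GFP-positive replicates 1, 2 and 3, against 81.7, 165 and 140 in GFP-negative replicates 1, 2 and 3. The groups did not overlap, as was so with GFP-positive cells higher for 17.4% of all tested genes, but the gap was small and the gene was not called (log2 fold change 0.71 with SE 0.34, 95% interval -0.07 to 1.49; limma, adjusted p = 0.259). The interval leaves out changes as large as that of alox12. GFP-positive libraries differed little from each other (SD 11.6), and GFP-negative replicate 1 was the lowest of the 6.

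The gene lta4h (ENSDARG00000006029) encodes leukotriene A4 hydrolase, which makes leukotriene B4 and has been studied in zebrafish for its part in the response to mycobacteria. Its levels were 444, 829 and 438 normalised reads in GFP-positive replicates 1, 2 and 3, against 533, 932 and 595 in GFP-negative replicates 1, 2 and 3. The groups overlapped, and replicate 2 had the highest value in both. The gene was not called (log2 fold change -0.29 with SE 0.33, 95% interval -1.05 to 0.47; limma, adjusted p = 0.656). In the RefSeq gene table of assembly GRCz12tu its span overlaps that of a long non-coding RNA gene, LOC141381591. Whole spans and not exons were compared, and the reads were counted on another assembly, danRer10. Strand was not given for the counting, so the reads of lta4h are not certain to be its own. The 3 genes of the lipoxygenase branch thus had values from a 22.7-fold rise to a difference within the replicate spread.

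Cyclooxygenase 2 is the inducible form of the enzyme in mammals, and zebrafish carry a pair of copies. The first, ptgs2a (ENSDARG00000004539), had 2211, 1808 and 466 normalised reads in GFP-positive replicates 1, 2 and 3, against 23.5, 89.1 and 35.2 in GFP-negative replicates 1, 2 and 3. The groups were far apart although GFP-positive replicate 3 stood well below the others. The means were 1495 ± 914 in the GFP-positive libraries and 49.3 ± 35.0 in the GFP-negative libraries (SD, n = 3 each). The gene rose by 4.84 on the log2 scale (SE 0.67, 95% interval 3.29 to 6.39; limma, adjusted p = 0.00299), more than 99.1% of tested genes. That value was 5.54 without GFP-positive replicate 3, a fold more than 1.5 times as large.

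The second copy, ptgs2b (ENSDARG00000010276), had 2780, 2478 and 1403 normalised reads in GFP-positive replicates 1, 2 and 3, against 49.5, 133 and 161 in GFP-negative replicates 1, 2 and 3. Its libraries were closer to each other than those of ptgs2a within the GFP-positive group. The means were 2220 ± 724 in the GFP-positive libraries and 114 ± 57.9 in the GFP-negative libraries (SD, n = 3 each). The rise was 4.37 on the log2 scale (SE 0.47, 95% interval 3.30 to 5.44; limma, adjusted p = 0.000924).

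Both copies rose. The ratio of ptgs2a to ptgs2b, taken on values plus 1, was 0.795, 0.730 and 0.332 in GFP-positive replicates 1, 2 and 3, against 0.484, 0.671 and 0.224 in GFP-negative replicates 1, 2 and 3. Replicate 3 had the lowest ratio in both groups, and the groups overlapped. Within each replicate number the GFP-positive ratio was the higher one, but the labels do not say that equal numbers are pairs. The test below leaves the number out. The log2 ratio differed by 0.47 between groups, which did not pass a two-sided exact permutation test (p = 0.5, n = 3 each, where 0.1 is the smallest p the design allows). Reads of 50 nt could be shared between close copies, so the split between ptgs2a and ptgs2b is uncertain.

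Cyclooxygenase 1, encoded by ptgs1 (ENSDARG00000052148), is the constitutive form in mammals. It was near the limit of detection, with 44.8, 9.96 and 10.2 normalised reads in GFP-positive replicates 1, 2 and 3, against 10.4, 0 and 10.6 in GFP-negative replicates 1, 2 and 3. These came from 34, 9 and 9 reads in GFP-positive libraries and 12, 0 and 15 in GFP-negative libraries. The groups overlapped and the gene was not called, with a wide interval (log2 fold change 1.80 with SE 1.13, 95% interval -0.81 to 4.41; limma, adjusted p = 0.395). Leaving out GFP-positive replicate 1 gave 1.12, and leaving out GFP-negative replicate 2 gave 0.63. In the same RefSeq table the span of ptgs1 overlaps that of the gene lhx6b, so the same doubt, with the same limits, holds for its reads.

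Neither terminal synthase of prostaglandin E2 among the 8 genes was called. The microsomal synthase ptges (ENSDARG00000020136), whose loss in zebrafish embryos slows gastrulation movements, had 13, 1 and 11 reads in GFP-positive replicates 1, 2 and 3, against 5, 4 and 7 in GFP-negative replicates 1, 2 and 3. As normalised reads these were 17.1, 1.11 and 12.4 in the GFP-positive libraries and 4.34, 3.68 and 4.93 in the GFP-negative libraries. The groups overlapped, and a difference was not detectable at this depth.

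The gene ptgesl (ENSDARG00000068415), given in the symbol table under its human counterpart PTGES2, encodes the second microsomal form. It had 423, 406 and 514 normalised reads in GFP-positive replicates 1, 2 and 3, against 799, 561 and 496 in GFP-negative replicates 1, 2 and 3. GFP-negative replicates 1 and 2 were above all GFP-positive libraries, GFP-negative replicate 3 was not, and the gene was not called (log2 fold change -0.44 with SE 0.25, 95% interval -1.02 to 0.13; limma, adjusted p = 0.340).

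Beyond these 8 genes, a list of 67 further pathway entries was examined, of which 58 matched a gene in the files and 35 were tested. In the GFP-positive group 8 of these 35 rose and 0 fell, against 8.8% and 0.676% of all tested genes, and their median log2 fold change was 0.59. That count has a limit, since 3 of the 35, ptgis, ltb4r2a and ptger2a, passed the minimum level only through GFP-positive libraries and 2 of these are among the 8. The list was also drawn up with earlier results of these data known, so the count is a description and not a test. At an unadjusted p under 0.05 (limma) 1 gene, the synthase ptges3a, was lower, and edgeR with library size alone called it. The rises were in lipoxygenases, terminal synthases, 1 phospholipase and 1 leukotriene receptor. They were also in mgst1.2 and mgst2, listed with the leukotriene enzymes, which join leukotriene A4 or other substrates to glutathione. No gene for prostaglandin breakdown and transport (6 tested), for prostanoid receptors (4 tested) or for epoxide hydrolases (2 tested) was called in limma, edgeR or DESeq2, and 1 of these 12, ptger2a, had an unadjusted p under 0.05 in limma.

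**Figure D2:**
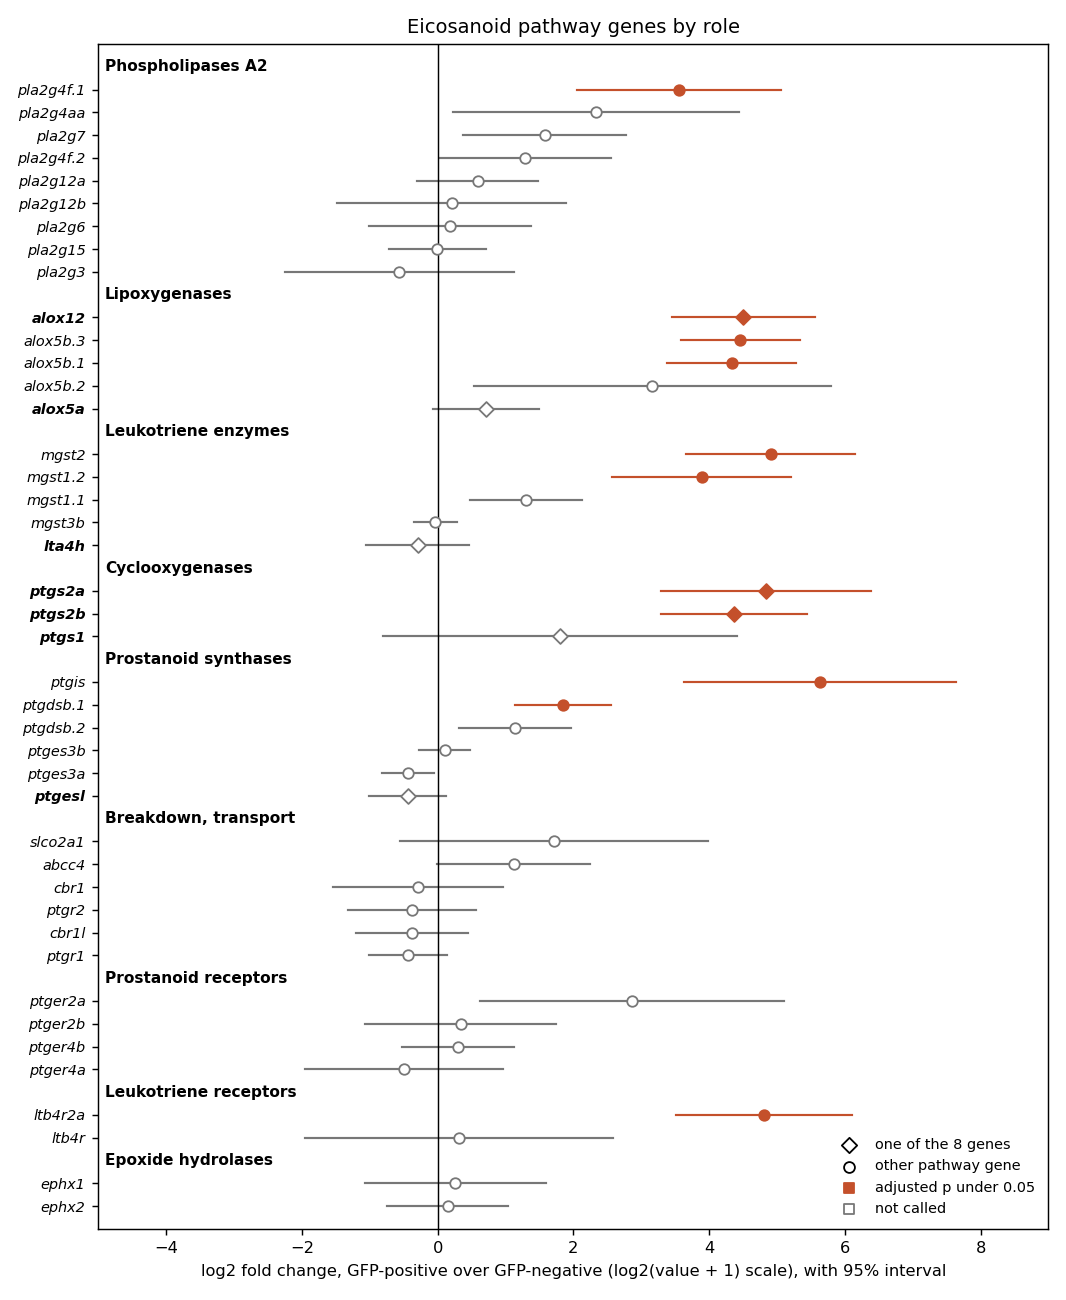
Log2 fold change of GFP-positive over GFP-negative cells with its 95% interval (limma, log2(value + 1) scale) for the 7 tested genes of the set (diamonds, bold names) and 35 other pathway genes (circles), grouped by role. Filled orange symbols passed an adjusted p of 0.05. These lie between 1.85 and 5.64, and none lies below 0.

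Among phospholipases A2, which release the fatty acid substrate, 1 of 9 tested genes rose, near the share of 8.8% over all tested genes. This was pla2g4f.1, of the cytosolic group, with 419, 127 and 71.1 normalised reads in GFP-positive replicates 1, 2 and 3, against 9.56, 15.6 and 12.7 in GFP-negative replicates 1, 2 and 3 (log2 fold change 3.55 with SE 0.65; limma, adjusted p = 0.0113). GFP-positive replicate 1 was more than 3 times as high as the next library, and the log2 fold change was 2.84 without it. That of limma-voom was 3.63 but missed the threshold (adjusted p = 0.0520). The genes with the highest levels on this list that were not called were pla2g15 (log2 fold change -0.0023), pla2g12a (0.59) and pla2g6 (0.18).

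The other 5-lipoxygenase copies in zebrafish, alox5b.1, alox5b.2 and alox5b.3, had larger fold changes than alox5a. The gene alox5b.3 had 48001, 40685 and 25966 normalised reads in GFP-positive replicates 1, 2 and 3, against 921, 2506 and 2057 in GFP-negative replicates 1, 2 and 3, with no overlap (log2 fold change 4.46 with SE 0.38, 95% interval 3.58 to 5.34; limma, adjusted p = 0.000647). The gene alox5b.1 had 706, 657 and 386 in the GFP-positive libraries and 16.5, 32.2 and 36.7 in the GFP-negative libraries (log2 fold change 4.34; limma, adjusted p = 0.000673). The interval of neither gene reaches down to that of alox5a. The gene alox5b.2 had 186, 104 and 7.89 in GFP-positive replicates 1, 2 and 3, against 3.48, 2.76 and 13.4 in GFP-negative replicates, and was not called (3.16; limma, adjusted p = 0.143). GFP-positive replicate 3 set this, since limma without it gave 4.49 (adjusted p = 0.0119), and DESeq2 on all 6 libraries called the gene (adjusted p = 0.00190). Its span overlaps that of alox5b.1 in the RefSeq table, so reads of this pair are uncertain, with the same limits. That table also lists a long non-coding RNA gene, LOC141377992, as overlapping alox5b.1. Reads could be shared between close copies too. Such sharing between alox5b.1 and alox5b.3, which had far more reads in every library, was not tested.

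Of the summed normalised reads of alox12, alox5a and the 3 alox5b copies, alox12 took 17.3%, 7.34% and 9.48% in GFP-positive replicates 1, 2 and 3, against 18.8%, 5.73% and 8.34% in GFP-negative replicates 1, 2 and 3, with overlap between groups. The share of alox5a was 0.366% to 0.673% in the GFP-positive libraries and 5.72% to 6.49% in the GFP-negative libraries, with no overlap. Most of the sum was alox5b.3, at 80.9% to 90.5% in the GFP-positive libraries and 73.2% to 87.3% in the GFP-negative libraries. The lower share of alox5a thus follows from the rise of alox5b.3, and the level of alox5a itself did not fall. The shares of the 3 alox5b copies overlapped. Reads were not divided by transcript length, so these shares compare libraries and not the levels of different genes. Within the cyclooxygenase reads, ptgs2b took 55.2% to 74.7% in the GFP-positive libraries and 59.4% to 77.8% in the GFP-negative libraries.

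Enzymes that join leukotriene A4 or other substrates to glutathione were higher in 2 of 4 tested, beside 8.8% of all tested genes. The gene mgst2, whose human counterpart can make leukotriene C4, had 8690, 3604 and 1988 normalised reads in GFP-positive replicates 1, 2 and 3, against 110, 224 and 90.9 in GFP-negative replicates 1, 2 and 3 (log2 fold change 4.91 with SE 0.54; limma, adjusted p = 0.00108). The gene mgst1.2 rose by 3.89 on the log2 scale (limma, adjusted p = 0.00387), or by 3.16 without GFP-positive replicate 1, where its level was 5491 against 1180 and 1245 in the other GFP-positive libraries. The gene mgst1.1 had no overlap but was not called (1.30; limma, adjusted p = 0.0628, against 0.00841 in DESeq2), and neither was mgst3b (-0.03, 95% interval -0.35 to 0.29). The leukotriene C4 synthase gene ltc4s and alox5ap, which encodes the 5-lipoxygenase activating protein, were below the minimum, at up to 9.02 and 3.95 normalised reads in any library.

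Of the other terminal prostanoid synthases, 2 of 5 tested rose, beside 8.8% of all tested genes. Prostacyclin synthase, ptgis, had 196, 46.5 and 35.0 normalised reads in GFP-positive replicates 1, 2 and 3, against 1.74, 0 and 0 in GFP-negative replicates 1, 2 and 3. That is 222 reads in GFP-positive and 2 in GFP-negative libraries, a ratio of 159 after scaling (exact binomial 95% interval 43.6 to 1324, for counting error only; limma, adjusted p = 0.00481). It passed the minimum level only through the GFP-positive group, and its fitted log2 fold change of 5.64 was 4.88 without GFP-positive replicate 1, 3.75 with 5 added in place of 1 and 7.39 in DESeq2. The lipocalin-type prostaglandin D synthase gene ptgdsb.1, listed in the files as ptgdsb, had 4585, 3454 and 2781 in the GFP-positive libraries and 1492, 686 and 925 in the GFP-negative libraries (log2 fold change 1.85 with SE 0.31; limma, adjusted p = 0.00707). Its copy ptgdsb.2 had no overlap between groups but was not called (1.14; limma, adjusted p = 0.0970). It was called in DESeq2 (adjusted p = 0.0344) and in limma without GFP-negative replicate 1 (1.44, adjusted p = 0.0409). The cytosolic prostaglandin E synthases ptges3b and ptges3a, which also serve as chaperone partners, were not called at 0.10 and -0.43, and ptges3a was lower in all 3 GFP-positive libraries, as were 13.5% of tested genes.

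Prostaglandin receptors did not pass the test. The EP4 receptor gene ptger4b had 269, 660 and 557 normalised reads in GFP-positive replicates 1, 2 and 3, against 303, 414 and 417 in GFP-negative replicates 1, 2 and 3 (log2 fold change 0.30, 95% interval -0.52 to 1.13; limma, adjusted p = 0.670). The groups overlapped, as did those of ptger2b (0.34) and ptger4a (-0.49). The EP2 receptor gene ptger2a, named after its values were seen, had 31.6, 17.7 and 14.7 in the GFP-positive libraries and 0, 9.19 and 1.41 in the GFP-negative libraries and was not called (limma, adjusted p = 0.121). Of the 13 prostanoid receptor genes on the list 9 were below the minimum, 3 of them at 0 reads in every library. Among leukotriene receptors ltb4r2a, whose mammalian counterpart binds leukotriene B4 with low affinity, was listed in the files as CR847899.1 and rose, with 134, 77.5 and 60.9 in the GFP-positive libraries and 1.74, 1.84 and 2.82 in the GFP-negative libraries (log2 fold change 4.81 with SE 0.57; limma, adjusted p = 0.00129), and it too passed the minimum level only through GFP-positive libraries. Its log2 fold change was 3.68 with 5 added in place of 1 and 5.40 in DESeq2. The receptor gene ltb4r was not called (0.31).

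Genes for the breakdown of prostaglandins were not called. The reductase gene ptgr1 had 635, 445 and 735 normalised reads in GFP-positive replicates 1, 2 and 3, against 974, 736 and 724 in GFP-negative replicates 1, 2 and 3 (log2 fold change -0.44, 95% interval -1.02 to 0.14; limma, adjusted p = 0.347). The carbonyl reductases cbr1 and cbr1l stood at -0.29 and -0.38, and the epoxide hydrolases ephx2 and ephx1 at 0.15 and 0.26. The 15-hydroxyprostaglandin dehydrogenase gene hpgd, which inactivates prostaglandin E2, was below the minimum, with 14.5, 1.11 and 0 in the GFP-positive libraries and 2.61, 0 and 2.11 in the GFP-negative libraries.

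The levels were also set against the summed EVL markers of each library, since GFP-positive replicate 1 was the highest library for these markers. Per 1000 of that sum, alox12 stood at 4.18, 3.02 and 3.66 in GFP-positive replicates 1, 2 and 3, against 5.18, 2.57 and 3.43 in GFP-negative replicates 1, 2 and 3. The same ratio for ptgs2a was 0.901, 1.66 and 0.613 in the GFP-positive libraries and 0.514, 1.39 and 0.591 in the GFP-negative libraries. For ptgs2b it was 1.13, 2.27 and 1.85 in the GFP-positive libraries and 1.09, 2.08 and 2.69 in the GFP-negative libraries. All 3 overlapped between groups on this scale (two-sided exact permutation tests, p = 1, 0.5 and 0.8, n = 3 each, over 16 genes set on this scale and not adjusted). The smallest p this design allows is 0.1, so no gene could pass 0.05 in these tests. Of the other called genes, alox5b.1, alox5b.3, mgst1.2 and mgst2 overlapped too, whereas pla2g4f.1, ptgdsb.1, ptgis and ltb4r2a did not. Among genes without a call, alox5a, ptges, ptgesl and lta4h were lower in all GFP-positive libraries on this scale, and ptgs1 overlapped. The marker sum was itself higher in GFP-positive libraries, so a gene with a smaller rise, or none, comes out lower there. The share of all tested genes with overlap on this scale was not counted. The gene ptgdsb.1 stood at 1.87, 3.16 and 3.66 in GFP-positive replicates 1, 2 and 3, against 32.7, 10.7 and 15.5 in GFP-negative replicates 1, 2 and 3. For ptgis the values were 0.080, 0.043 and 0.046 against 0.038, 0 and 0, with 2 reads in all GFP-negative libraries. The mean GFP-negative level was 3.71%, 3.30% and 5.16% of the mean GFP-positive level for alox12, ptgs2a and ptgs2b, beside 2.38% to 3.49% for the keratins and 2.38% to 21.1% for all 16 EVL markers. The part of EVL transcripts among GFP-negative reads in these levels was not tested. In bulk samples of this kind, fewer cells with a transcript and less RNA per cell cannot be told apart.

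**Figure D3:**
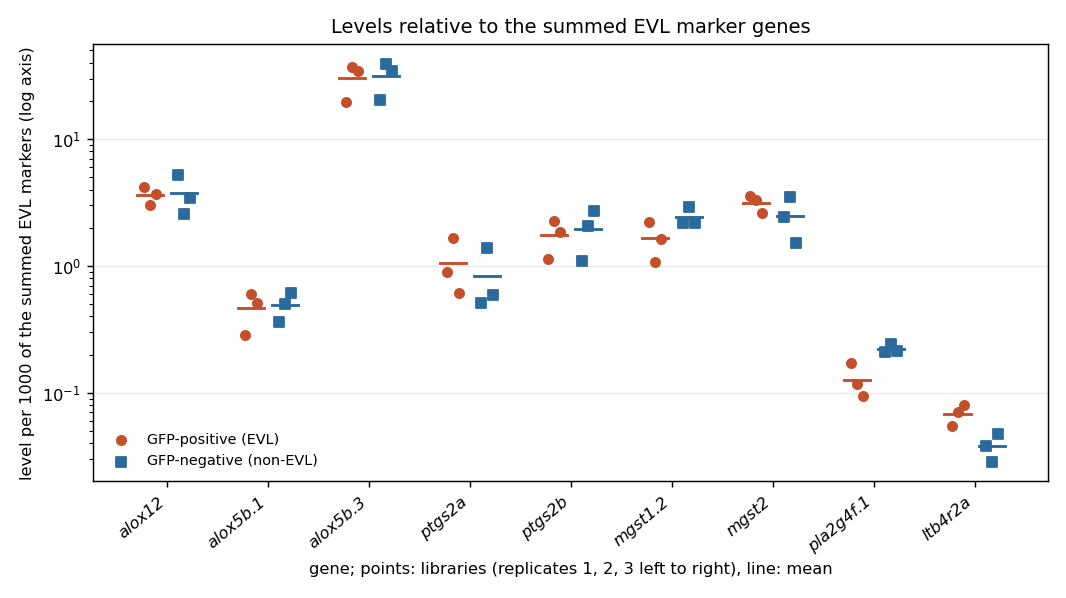
Level of 9 called pathway genes per 1000 of the summed 16 EVL markers (log axis) in each GFP-positive (circles) and GFP-negative (squares) library, with group means as lines. From alox12 to mgst2 the groups overlap, whereas pla2g4f.1 is lower and ltb4r2a higher in all GFP-positive libraries. The values of ltb4r2a rest on 2, 2 and 4 reads in GFP-negative replicates 1, 2 and 3, and it passed the minimum level only through GFP-positive libraries. The called genes ptgis and ptgdsb.1 are not drawn.

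White blood cell markers were examined because alox5a and lta4h are known from those cells. Of 8 such genes found in the files, 3 were tested and 0 were called, and their sum ran from 196 to 318 normalised reads in GFP-positive libraries and from 183 to 228 in GFP-negative libraries. Most of that sum was cybb, with 137, 199 and 266 normalised reads in GFP-positive replicates 1, 2 and 3, against 153, 175 and 143 in GFP-negative replicates 1, 2 and 3. The macrophage gene mpeg1.1 had 0 reads in all libraries. The myeloid regulator spi1b had 0 reads in each GFP-positive library, against 2, 16 and 0 in GFP-negative replicates 1, 2 and 3. The lysozyme gene lyz and the myeloperoxidase gene mpx had 24, 12 and 0 reads and 0, 0 and 8 reads in GFP-positive replicates 1, 2 and 3, against 0 reads of both in every GFP-negative library. The part of such cells in the levels of alox5a and lta4h was not tested.

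Genes most like the 3 called genes were sought over the 6 libraries by the mean absolute difference of log2(value + 1) after centring each gene on its mean. Genes under clone or provisional names were passed over, so a nearer gene of that kind could exist. Nearest to alox12 was s100v2 (0.086), with 3999, 1273 and 959 normalised reads in GFP-positive replicates 1, 2 and 3, against 75.6, 62.5 and 74.0 in GFP-negative replicates 1, 2 and 3. It was followed by the keratin krt96 (0.149) and by bspry (0.160). Nearest to ptgs2a were elf3 (0.236), styk1 (0.292) and b3gnt5a (0.300), each with its lowest GFP-positive value in replicate 3. Nearest to ptgs2b were neurl1ab (0.104), the grainyhead-like factor grhl2a (0.112) and the tight junction gene MARVELD3 (0.123). All 9 had log2 fold changes between 4.21 and 4.85. The search matches the profile over the 6 libraries, so a like fold change and a like order of replicates follow from it. No gene was shared between the 3 sets of neighbours.

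**Figure D4:**
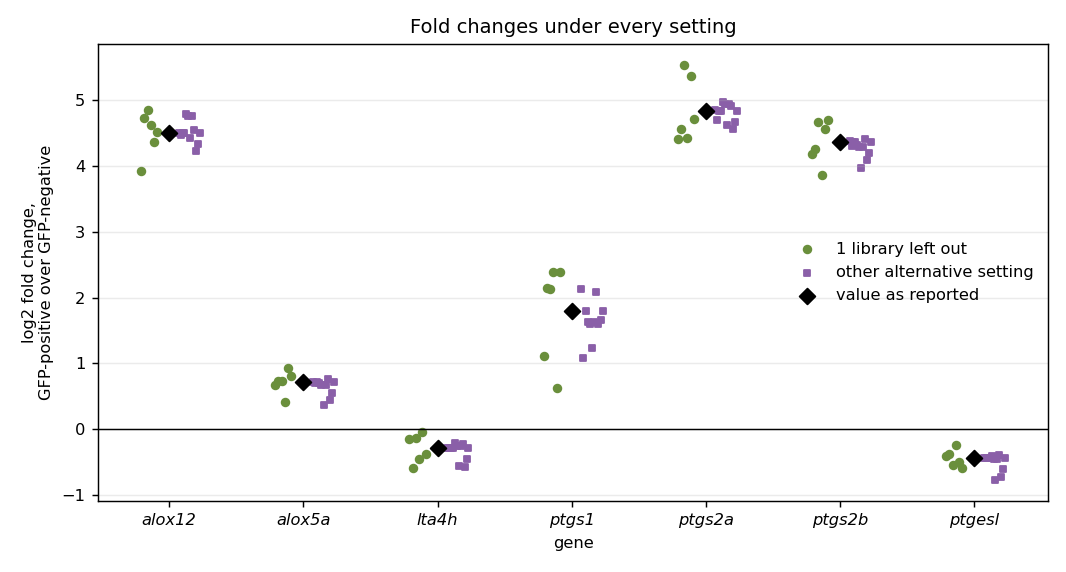
Log2 fold change of GFP-positive over GFP-negative cells for the 7 tested genes as reported (diamonds), with 1 library left out (circles) and under the other alternative settings (squares). The values of alox12, ptgs2a and ptgs2b stay between 3.85 and 5.54, and those of ptgesl and lta4h stay below 0.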

How the data were processed

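Per the labels, cells came from about 1500 embryos, 10000 GFP-positive cells were sorted, and RNA was amplified by SMARTseq2, which marks neither strand nor molecule, and sequenced as single-end reads of 50 nt. Per the submitters' processing notes, Trim Galore, STAR 2.6.1d, danRer10, featureCounts and DESeq2 were used, with no other version named there. The deposited signal values were reads divided by 1 size factor per library, since 100% of values came out whole, within 0.01 read, and recomputed DESeq2 factors matched.

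Here, limma 3.58.1 (R 4.3.3) was fitted to log2(value + 1) over the 15971 genes at 10 or more normalised reads in 3 or more libraries, with group as the only term, a variance trend and robust shrinkage. The added 1 understates changes of low genes. Calls are Benjamini-Hochberg adjusted p under 0.05. The recovered reads were tested with edgeR 4.0.16, DESeq2 1.42.0 and limma-voom as alternatives. The fits were tested on simulated data with planted rises and falls in equal number but of different fold sizes. Scaling under an uneven split was not tested by it, and rises and falls of 1 size were not compared. No rise as large as that of alox12, ptgs2a or ptgs2b was planted, and the outcome is not given here. Genes named were the 8, every called pathway gene and up to 3 uncalled per list with the highest mean. The pathway genes hpgd, ptger2a and pla2g7 were named outside this rule. Lists were matched by the files' gene names or by the symbol table. The 8 genes and the lists were chosen with earlier results of these data known.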

Additional observations from a re-analysis of the deposited data

How the results depend on the processing

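The 3 calls of higher members and the 0 calls of lower members held under all 18 alternatives for alox12, ptgs2a and ptgs2b, with log2 fold changes of 3.92 to 4.86, 4.42 to 5.54 and 3.85 to 4.69 and adjusted p up to 0.00577, 0.0192 and 0.00782. The genes alox5a, ptgs1, lta4h and ptgesl were called under none of theirs, with adjusted p from 0.215, 0.241, 0.240 and 0.0987 upwards, and none changed sign. A minimum of 5 CPM left alox5a and ptgs1 out. Other pathway genes numbered 5 higher with that minimum and 12 with DESeq2 (which added pla2g7, alox5b.2, mgst1.1 and ptgdsb.2), and 8 to 9 without single libraries; 1, ptges3a, was lower with library size alone (adjusted p = 0.0368) or upper quartile scaling (0.0351). The median over all genes was -0.37 and -0.33 under these scalings, and -0.22 when the most abundant gene was taken out of the scaling total. Over all genes the higher calls numbered 995 to 1304 without single libraries and the lower calls 14 to 77. The lower calls were 54 (edgeR with TMM), 65 (edgeR with DESeq2 size factors), 929 (edgeR with library size alone), 327 (DESeq2), 47 (limma-voom), 173 (most abundant gene taken out of the total) and 572 (upper quartile), against 108 as reported; the cause was not tested. Higher calls made up 57.4% of calls with library size alone and 92.9% as reported. With the replicate number as a block, 1573 genes were higher and 279 lower, with 3 higher members and 9 higher pathway genes. Same-numbered libraries deviated together with r = 0.259, 0.328 and 0.075, each library correlating best with its own number, which is a hint from the data and not from the labels. Low read numbers limit ptgs1 and ptges.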
